A study of Mus musculus with 6 samples.

Results

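Lamins and their partners at the nuclear envelope were described in RNA of macrophages from the peritoneal cavity of mice. The genes were chosen by name: 10 of the 15469 genes in the deposited table, namely Lmna, Lmnb1, Lmnb2, Lbr, Tmpo, Emd, Banf1, Sun1, Sun2 and Lemd3. They were proposed with results of the same comparison in view, Lmnb1 in particular, so the values of that comparison are given as a description and are not independent evidence. All 10 passed the filter on low counts. The cells came from peritoneal lavage of CAIA mice (the labels do not spell the model out), were sorted for surface RELM-α and were then plated. There were 3 libraries labelled KO, from PU.1-deleted cells, and 3 labelled WT, from control cells of the same sort. The labels used here give no strain, age, sex, allele, deletion method or culture time, nor do they say that libraries came from separate animals, so p-values measure a spread between samples that may be technical. The comparison addresses what PU.1, the ETS-family transcription factor encoded by Spi1, controls in these cells. Values of a group are listed in the order of replicates 1, 2 and 3.

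The lamina is a mesh of intermediate filament proteins under the inner nuclear membrane. A-type lamins come from Lmna and are abundant in differentiated and mechanically loaded cells, while B-type lamins come from Lmnb1 and Lmnb2 and stay attached to the membrane through a lipid anchor. The lamin B receptor and the LEM-domain proteins tether lamina and chromatin to the membrane, BAF links LEM-domain proteins to DNA, and SUN proteins join the lamina to the cytoskeleton as part of the LINC complex. The envelope breaks down and is rebuilt at each mitosis, and Lmnb1 mRNA is known to be high in proliferating cells and low in senescent ones.

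Depth ran from 17280855 to 18632623 counts per library. Of the targeted gene, Spi1, the transcript was still there under the KO label, at 276.9, 285.5 and 319.7 CPM (a gene's counts relative to its library size, adjusted by TMM factors) in the KO libraries against 323.4, 340.2 and 283.7 CPM in the WT libraries. Counts per gene would not show a deletion that leaves most of the transcript, and why the Spi1 transcript was still there was not tested. The labels KO and WT are used below as the titles give them. KO replicate 1 stood apart from KO replicates 2 and 3. Of all 11424 genes tested, 379 were called, which is 3.32%, by the quasi-likelihood test of edgeR at an adjusted p under 0.05 (258 higher in KO, 2.26%, and 121 lower, 1.06%). Without KO replicate 1, 5793 of 11677 were called, which is 49.6%. DESeq2 called 1344 of 12427 genes with an adjusted p, which is 10.8%. Transcripts of macrophage markers were present in every library, among them Adgre1 at 662 to 1324 CPM, Csf1r at 1560 to 2900 CPM and Cd68 at 2114 to 2642 CPM, while Timd4, a marker of resident peritoneal macrophages, was at 0 to 1.25 CPM. Their levels were not alike under the labels. Csf1r was called higher in KO, at 2900, 2609 and 2573 CPM against 1562, 1560 and 1567 CPM in WT (edgeR adjusted p = 0.0208). All KO libraries lay above all WT libraries in Adgre1 and below them in Cd68 and Mertk, none of which was called. Gata6 was not analysed here. The summed CPM of 4 Y-linked genes was 0.0513 to 0.440 in KO and 125 to 171.4 in WT, so the label and the sex of the cells cannot be told apart.

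Lmnb1 was the member with the widest separation between the labels. Lmnb1 (gene ID 16906, chromosome 18, 56707813 to 56753424, GRCm38) encodes lamin B1. It was at 9.03, 37.7 and 29.4 CPM in the KO libraries against 3.08, 3.18 and 3.12 CPM in the WT libraries. The underlying counts were 164, 735 and 565 against 53, 55 and 52. The WT libraries lay close together, all 3 KO libraries lay above them, and KO replicate 1 lay between the WT libraries and the other KO libraries. The KO mean was 25.4 ± 14.8 CPM and the WT mean 3.13 ± 0.0476 CPM (SD, n = 3 each), a log2 difference of 3.02 (SE 0.545, 95% interval 1.67 to 4.37). KO replicate 1 was 2.89-fold above the WT mean, and KO replicates 2 and 3 were 12.1-fold and 9.42-fold above it. The adjusted p over all genes was 0.0499 by edgeR, at the edge of the threshold, and 6.28e-07 by DESeq2. With RLE factors in place of TMM the edgeR value was 0.0506, with no filter on low counts 0.0591 and with limma-voom 0.131. It was 3.86e-06 without KO replicate 1, 0.139 and 0.173 without KO replicates 2 and 3, and 0.210, 0.252 and 0.172 without WT replicates 1, 2 and 3. The log2 difference stayed between 2.60 and 3.44 in all of these fits.

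Lmna (gene ID 16905, chromosome 3, 88481148 to 88509932) encodes lamins A and C. It was at 162.5, 183.3 and 197.0 CPM in the KO libraries against 251.9, 256.2 and 210.1 CPM in the WT libraries. Every KO library lay below every WT library, with KO replicate 1 the lowest, and the means were 180.9 ± 17.4 and 239.4 ± 25.5 CPM (SD, n = 3 each). The log2 difference was -0.40 (SE 0.120, 95% interval -0.70 to -0.11), and Lmna was not called (edgeR adjusted p = 0.124). An upstream window of Lmna is printed with those of Lbr, Tmpo and Lmnb2 below.

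Lmnb2 (gene ID 16907, chromosome 10, 80901363 to 80918490) encodes lamin B2. It was at 20.6, 42.1 and 36.4 CPM in the KO libraries against 17.6, 21.4 and 18.9 CPM in the WT libraries. KO replicate 1 lay within the range of the WT libraries, and the other KO libraries lay above it. The log2 difference was 0.78 (SE 0.273), and the gene was not called (edgeR adjusted p = 0.172).

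**Figure D1:**
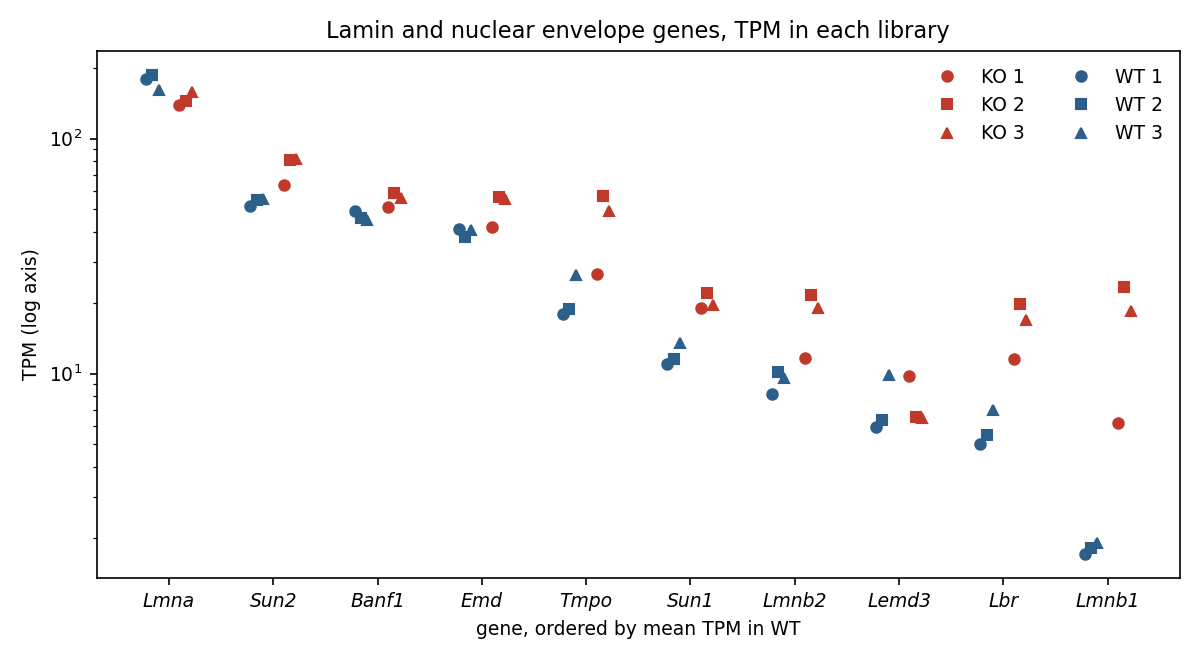
Points give the deposited TPM (transcripts scaled to a fixed total, corrected for gene length) on a log axis for each of the 10 genes in each library, with WT in blue and KO in red and a marker shape for each replicate number. Lmnb1 is at 1.71 to 1.90 TPM in WT and at 6.14 to 23.4 TPM in KO, with KO replicate 1 lowest of the KO libraries; this scale carries no TMM factor and sets KO levels higher than CPM does.

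On the TPM scale, which corrects for gene length and allows genes to be compared, the lamins of WT libraries were almost entirely of the A type. Lmna averaged 176 ± 13.0 TPM in WT, which put it above 95.6% of genes, against 9.34 ± 1.02 TPM for Lmnb2 and 1.81 ± 0.0954 TPM for Lmnb1, which was above 36.1% of genes. In KO the means were 147 ± 9.37, 17.4 ± 5.18 and 16 ± 8.87 TPM (SD, n = 3). The ratio of Lmna to Lmnb1 in TPM was 104.7, 102.8 and 85.1 in WT replicates 1, 2 and 3 and 22.7, 6.19 and 8.52 in KO replicates 1, 2 and 3. The groups did not overlap, with KO replicate 1 nearest to WT. The group means were 97.6 ± 10.8 in WT and 12.4 ± 8.90 in KO.

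B-type lamins made up 5.25%, 6.04% and 6.63% of lamin TPM in WT replicates 1, 2 and 3. In KO replicates 1, 2 and 3 the share was 11.4%, 23.7% and 19.2%. Again every KO library lay above every WT library. The sum of the 3 lamins was less separated, at 156.8, 189.6 and 194.8 TPM in KO and 189, 199.1 and 173.2 TPM in WT, and those ranges overlapped. Within the B type, Lmnb2 exceeded Lmnb1 by 4.80 to 5.61 times in WT, and the ratio was 1.90, 0.928 and 1.03 in KO replicates 1, 2 and 3. These ratios are descriptions without a test, since with 3 libraries against 3 an exact permutation test cannot give a two-sided p below 0.1.

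**Figure D2:**
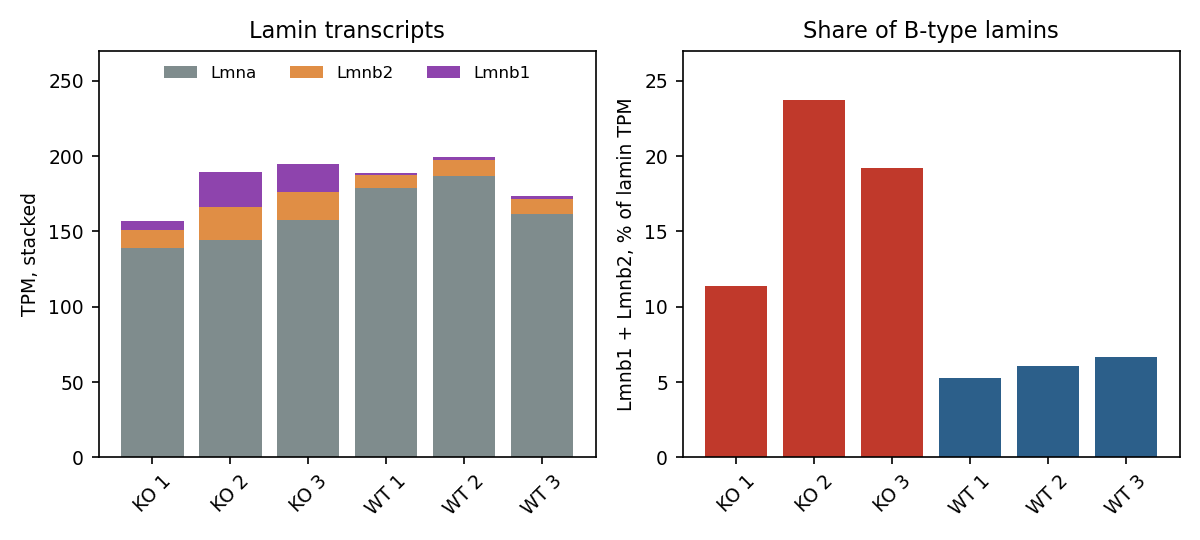
Left, stacked bars of the deposited TPM of Lmna, Lmnb2 and Lmnb1 in each library; right, Lmnb1 and Lmnb2 together as a percentage of the TPM of the 3 lamins. The share is 5.25% to 6.63% in WT and 11.4% to 23.7% in KO, while the summed height overlaps between the groups.

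Of the membrane tethers of the lamina, Lbr was separated between the labels in CPM and Tmpo was not. Lbr (gene ID 98386, chromosome 1, 181815315 to 181842401) encodes the lamin B receptor, an inner membrane protein that also has sterol reductase activity. It was at 21.6, 40.7 and 34.6 CPM in the KO libraries against 11.5, 12.1 and 14.7 CPM in the WT libraries. All KO libraries lay above all WT libraries, and KO replicate 1 was the lowest of them. The log2 difference was 1.34 (SE 0.254, 95% interval 0.716 to 1.96). Lbr was not called by edgeR (adjusted p = 0.0525) and was called by DESeq2 (adjusted p = 0.000246). Lbr overlaps Dnah14 in the GENCODE annotation, as Banf1 overlaps Eif1ad, and how the authors counted shared reads was not stated in the labels. The ratio of Lmna to Lbr in TPM was 35.6, 34.3 and 23 in WT and 12.0, 7.34 and 9.26 in KO.

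Tmpo (gene ID 21917, chromosome 10, 91145188 to 91181930) encodes the LAP2 family, LEM-domain proteins that bind lamins and chromatin. It was at 50.2, 118.1 and 100.8 CPM in the KO libraries against 41.3, 42.1 and 55.3 CPM in the WT libraries. KO replicate 1 lay within the WT range, while KO replicates 2 and 3 were 2.56-fold and 2.18-fold above the WT mean. The log2 difference of 0.96 (SE 0.333) was not called (edgeR adjusted p = 0.170). Counts per gene do not separate the LAP2 isoforms.

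The CPM values of the other LEM-domain genes and of their DNA-binding partner overlapped between the labels. Emd, which encodes emerin and lies on the X chromosome, was at 31.8, 46.7 and 45.3 CPM in KO and 38.1, 34.2 and 34.4 CPM in WT, with a log2 difference of 0.21 (95% interval -0.19 to 0.62; edgeR adjusted p = 0.454). KO replicate 1 was the lowest of the 6 libraries and the other KO libraries were the highest. Lemd3, which encodes the inner membrane protein MAN1, an inhibitor of SMAD signalling, was at 25.0, 18.3 and 18 CPM in KO and 18.4, 19.3 and 28.1 CPM in WT. Its log2 difference was -0.10 (95% interval -0.64 to 0.44; edgeR adjusted p = 0.788) and turned to 0.11 without WT replicate 3. Banf1, which encodes BAF, was at 20.4, 26.2 and 24.5 CPM in KO and 24.3, 22.4 and 20.3 CPM in WT. Its log2 difference was 0.09 (95% interval -0.25 to 0.42; edgeR adjusted p = 0.705) and turned to -0.02 without KO replicate 2. The groups overlapped for all 3 genes.

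Of the SUN proteins, which span the inner membrane, Sun1 was separated between the labels in CPM and Sun2 was not. Sun1 (gene ID 77053, chromosome 5, 139200564 to 139249839) was at 41.4, 52.3 and 46.8 CPM in the KO libraries against 29.5, 29.5 and 32.6 CPM in the WT libraries. All KO libraries lay above all WT libraries, and the log2 difference was 0.62 (SE 0.118; edgeR adjusted p = 0.0518, DESeq2 adjusted p = 0.00234). Sun2 was at 127.8, 178.1 and 178.2 CPM in KO and at 125.8, 130.8 and 124.4 CPM in WT. KO replicate 1 lay among the WT libraries, and the log2 difference of 0.35 (95% interval -0.01 to 0.70) was not called (edgeR adjusted p = 0.228). In TPM, Sun2 exceeded Sun1 by 4.12 to 4.78 times in WT and by 3.35 to 4.17 times in KO, ranges that overlapped.

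**Figure D3:**
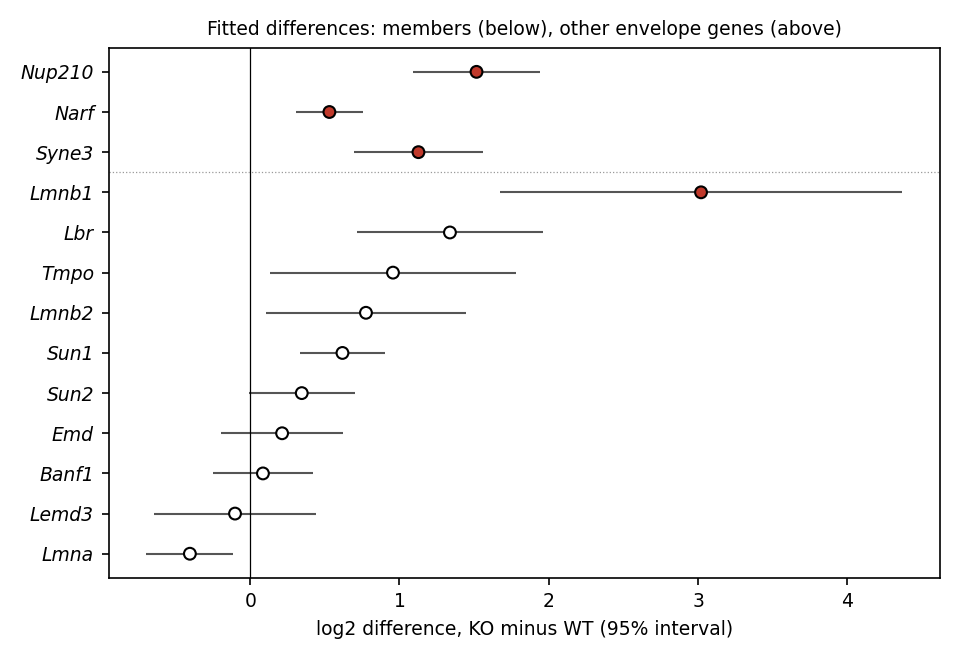
Each point is the fitted log2 difference between KO and WT with its 95% interval, filled red where edgeR's adjusted p was under 0.05, for the 10 members below the dotted line and Syne3, Narf and Nup210 above it. Lmnb1 has the largest difference (3.02) and the widest interval (1.67 to 4.37), and Lmna and Lemd3 lie left of 0.

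Read together, 1 of the 10 members was called by edgeR, Lmnb1, beside 3.32% of all genes. That comparison chose the members, so nothing is read from the count. By DESeq2 3 were called, Lmnb1, Lbr and Sun1, beside 10.8%. The authors' deposited table has the same 3 members past a DESeq2 q-value of 0.05, beside 1238 of its 15469 genes, with q = 7.79e-07 for Lmnb1. An unadjusted p under 0.05 was reached by 5 members in the higher direction and by 1, Lmna, in the lower, beside 22.7% of all genes. In 3 members all KO libraries lay above all WT libraries (18.4% of all genes) and in 1 all lay below (12.6%). Without KO replicate 1, 7 members were called higher and 1 lower, beside 49.6% of all genes. The median log2 difference was 0.48 over the members and -0.01 over all genes tested. The deposited TPM carry no TMM factors, and on that scale the median log2 ratio of the group means over all genes tested was 0.14 and that of the members 0.62. On it all KO libraries lay above all WT libraries in 8 members (31.9% of all genes tested) and below in Lmna (4.91%), so Lmnb2, Tmpo, Emd, Banf1 and Sun2 overlapped in CPM and not in TPM, and the Lemd3 means turned to 7.62 in KO and 7.39 TPM in WT. In bulk RNA, more cells with a transcript and more of it per cell cannot be told apart.

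In WT the members ranked by mean TPM as Lmna (176), Sun2 (54.0), Banf1 (46.8), Emd (40.1), Tmpo (21.0), Sun1 (12.0), Lmnb2 (9.34), Lemd3 (7.39), Lbr (5.84) and Lmnb1 (1.81). Neighbours in that order did not overlap, except that the libraries of Lemd3 overlapped those of both Lmnb2 and Lbr. The order in KO was the same as far as Lmnb2, after which came Lbr, Lmnb1 and Lemd3.

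The position of KO replicate 1 varied among the members. For 6 of them, Lmnb1, Lmnb2, Lbr, Tmpo, Sun1 and Sun2, it lay between the WT mean and the mean of the other KO libraries, against 35.5% of all genes tested. Relative to the WT mean, the log2 ratio of KO replicate 1 was 1.53 for Lmnb1, 0.76 for Lbr, 0.44 for Sun1 and 0.12 for Tmpo. The mean of KO replicates 2 and 3 gave 3.42, 1.56, 0.70 and 1.24. Lmna went the other way, with -0.56 in KO replicate 1 and -0.33 in the others. After each gene's log2 CPM was centred over the 6 libraries, the closest pair of members was Emd and Sun2, at a root mean square distance of 0.0942, followed by Emd and Banf1 at 0.103, Banf1 and Sun2 at 0.156, Sun1 and Sun2 at 0.179, Lmnb2 and Tmpo at 0.195 and Lbr and Tmpo at 0.236. Lmnb1 lay 0.819 from its nearest member, Lbr.

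The genes whose pattern over the 6 libraries was most like that of Lmnb1 were found by the same distance among tested genes that averaged 10 CPM or more. They were Mcm5, a subunit of the replicative helicase, at 0.0489, LOC115488503 at 0.164, Espl1, which encodes separase, at 0.264, Cacna1a, a calcium channel subunit, at 0.272, and Tpx2, a spindle assembly factor, at 0.280. The spread of Lmnb1 around its own mean was 1.51 on the same scale. In WT these genes averaged 2.17 to 6.08 CPM, so they passed the 10 CPM filter only through the KO libraries. The distance rests largely on the gap between the labels for which Lmnb1 was proposed. Their likeness is therefore a description and not independent evidence. Mcm5 was at 17, 71.1 and 57.8 CPM in the KO libraries against 5.64, 6.47 and 6.13 CPM in the WT libraries. Its folds over the WT mean in the KO libraries were 2.80, 11.7 and 9.50, beside 2.89, 12.1 and 9.42 for Lmnb1. Mcm5 missed the threshold (edgeR adjusted p = 0.0503). For Lmna the nearest genes were Arl2, a small GTPase, at 0.0382, Gnl1 at 0.0426, Ucp2, a mitochondrial carrier, at 0.0449, Psmb6, a proteasome subunit, at 0.0529, and Ppdpf at 0.0570, against a spread of 0.236 for Lmna itself.

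Cell cycle genes varied over the same libraries. Of 25 listed mitosis genes 6 were called higher by edgeR and none lower, 3 by limma-voom and 24 by DESeq2, and the median log2 difference of the list was 3.0. Their summed CPM was 210.1, 852.5 and 859.5 in KO replicates 1, 2 and 3 and 88.3 to 99.4 in WT. Among those called were Hmmr, a spindle-associated hyaluronan receptor, at 3.96, 6.06 and 8.39 CPM in KO and 0.930, 0.289 and 0.841 CPM in WT (edgeR adjusted p = 0.0389), Kif11, a spindle kinesin, with a log2 difference of 3.0 (edgeR adjusted p = 0.0217), and Cenpf, a kinetochore protein that also docks at the envelope, with 2.50 (edgeR adjusted p = 0.0376). None of the 25 DNA replication and S phase genes was called by edgeR or limma-voom, while 19 had an unadjusted p under 0.05 in the higher direction and DESeq2 called 16. Their median log2 difference was 1.30 and their summed CPM was 607.2, 1439 and 1210 in KO and 669.5 to 693.6 in WT. Pcna, the clamp of replicating DNA polymerase, was the larger part of that sum in WT and the smaller part in KO. It was at 255.9, 378.8 and 337.2 CPM in KO and 390 to 414.4 CPM in WT. With Pcna in the sum, KO replicate 1 lay below every WT library. Without Pcna, an alternative chosen after its values were seen, the other 24 genes summed to 351.3, 1060 and 872.9 CPM in KO and 268.3 to 279.5 CPM in WT, so KO replicate 1 then lay above every WT library. All KO libraries lay above all WT libraries in 14 of the 25 genes, beside 18.4% of all genes tested. For both lists, the shares over all genes were 2.26% called higher by edgeR and 10.8% called in either direction by DESeq2. An unadjusted p under 0.05 in either direction was reached by 22.7%, and limma-voom called 355 of all genes. The edgeR calls of Hmmr, Kif11 and Cenpf were kept without KO replicate 1 and were lost when any 1 of the other libraries was left out (adjusted p = 0.0822 to 0.234 over these fits). Whether the share of dividing cells has a part in the values of Lmnb1, Lbr and Tmpo was not tested.

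**Figure D4:**
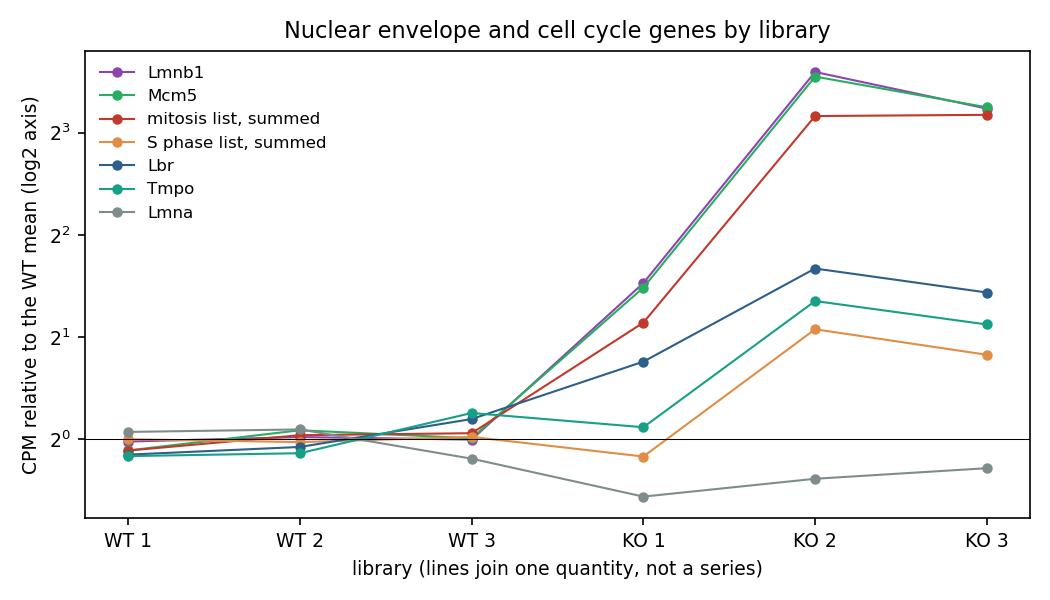
CPM relative to the WT mean on a log2 axis in each library, for Lmnb1, Lbr, Tmpo, Lmna, Mcm5 and the summed mitosis and S phase lists, with lines that join the values of 1 quantity. Lmnb1 (2.89, 12.1 and 9.42 in KO replicates 1, 2 and 3) runs along Mcm5 (2.80, 11.7 and 9.50), which was picked for its likeness to Lmnb1. Lmna stays below 1 in all KO libraries.

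Upstream sequence was read for Tmpo, for the members nearest to it in pattern, Lmnb2 and Lbr, and for Lmna, which lay lower in KO. The 250 bases before an annotated start were taken from RefSeq (GRCm38.p6), in which 9 members were looked up, with 14 windows in all because some have more than 1 start (the upstream window of Lmnb1 was not analysed here). Of each gene the window at 1 chosen annotated start is given 5′ to 3′ on the minus strand, on which all 4 genes lie. Which start these cells use was not tested. Capitals mark the letters CCAAT, the box bound by NF-Y, and the letters TTTGAA, the cell cycle genes homology region, on either strand.
Lbr, chr1:181842402-181842651: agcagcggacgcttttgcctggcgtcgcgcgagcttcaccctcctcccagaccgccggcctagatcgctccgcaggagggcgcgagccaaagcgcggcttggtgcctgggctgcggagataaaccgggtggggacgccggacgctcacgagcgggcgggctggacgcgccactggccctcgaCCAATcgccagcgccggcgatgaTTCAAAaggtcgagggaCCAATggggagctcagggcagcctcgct
Tmpo, chr10:91171620-91171869: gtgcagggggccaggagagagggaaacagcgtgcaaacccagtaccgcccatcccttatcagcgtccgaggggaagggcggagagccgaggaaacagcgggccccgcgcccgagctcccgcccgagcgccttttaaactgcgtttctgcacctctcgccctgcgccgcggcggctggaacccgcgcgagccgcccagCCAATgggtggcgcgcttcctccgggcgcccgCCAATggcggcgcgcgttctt
Lmnb2, chr10:80918246-80918495: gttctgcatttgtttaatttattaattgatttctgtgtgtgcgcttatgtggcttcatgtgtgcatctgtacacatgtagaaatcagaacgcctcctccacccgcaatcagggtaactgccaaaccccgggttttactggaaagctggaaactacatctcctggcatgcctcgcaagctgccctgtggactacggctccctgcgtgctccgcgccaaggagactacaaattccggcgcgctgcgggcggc
Lmna, chr3:88503353-88503602: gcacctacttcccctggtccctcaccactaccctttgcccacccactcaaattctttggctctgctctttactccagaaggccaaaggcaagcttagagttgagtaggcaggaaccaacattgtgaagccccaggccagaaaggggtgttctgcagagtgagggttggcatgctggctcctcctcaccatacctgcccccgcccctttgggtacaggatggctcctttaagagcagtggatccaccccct
The Lbr window holds a TTTGAA match on the opposite strand between a pair of CCAAT matches, which begin 68, 45 and 28 bases before the start. The Tmpo window holds CCAAT at 53 and 21 bases before the start, and the printed windows of Lmnb2 and Lmna hold neither motif. The unprinted window of Lmna holds CCAAT at 131 bases before its start, that of Tmpo holds TTTGAA at 28 bases, and that of Lmnb2 holds neither. What a gene shows here thus depends on the start that is taken. Bases just after that unprinted Tmpo start were not found in a GENCODE transcript of Tmpo. By the gene coordinates given above, all windows of Lmna and Tmpo lie within the gene. Sequence before the outermost start of these genes was therefore not read, and a motif there would not be seen. The printed window of Lmnb2 also lies almost wholly within its coordinates, though it adjoins the start of the gene in GENCODE. Among 32851 RefSeq windows of the same length, 33.8% hold CCAAT, 16% hold TTTGAA and 5.55% hold both. Of the 14 windows of the members, 9 held CCAAT and 3 held TTTGAA, and Lmnb2 was the 1 member of the 9 without CCAAT in any window that was read. Besides that of Lbr, the unprinted window of Sun2 held both, with CCAAT at 85 and 41 bases and TTTGAA at 95 bases before its start. E2F-type words (TTTCCCGC, TTTGGCGC, TTTCGCGC or TTTGCCGC, either strand) were in 1.86% of all windows and in 2 of the 14. These were that unprinted window of Tmpo and an unprinted window of Banf1. A PU.1-type word, GAGGAAGT on either strand, was in 2.44% of all windows and in those of no member. These matches are descriptions of letters and not of bound sites.

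Beyond the 10 members, 94 further nuclear envelope genes in 7 lists were examined, of which 91 could be tested. By edgeR 3 were called higher and none lower, by limma-voom 3 higher and by DESeq2 11 higher and 2 lower. An unadjusted p under 0.05 was reached by 22 in the higher and 3 in the lower direction, and the median log2 difference was 0.06. Over all genes edgeR called 2.26% higher and 1.06% lower, DESeq2 called 10.8% in either direction, and 22.7% had an unadjusted p under 0.05. Without KO replicate 1, 41 were called, beside 49.6% of all genes in that fit, and without any other single library none was.

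The 3 called genes were level over the KO libraries, KO replicate 1 included. Syne3, which encodes nesprin-3, the outer membrane partner of SUN proteins that binds plectin, was at 31.0, 33.1 and 36.4 CPM in the KO libraries against 12.9, 13.9 and 19.2 CPM in the WT libraries. Its log2 difference was 1.13 (SE 0.178; edgeR adjusted p = 0.0387). Nup210, a membrane nucleoporin, was at 11.5, 14.8 and 12.4 CPM in KO and 5.12, 4.33 and 4.08 CPM in WT, with a log2 difference of 1.52 (SE 0.174; edgeR adjusted p = 0.0199). Narf, a protein that binds prelamin A, was at 36.1, 35.1 and 32.6 CPM in KO and 23.5, 23.2 and 25.1 CPM in WT, with a log2 difference of 0.53 (SE 0.0929; edgeR adjusted p = 0.0451). In these genes KO replicate 1 was 2.02-fold, 2.55-fold and 1.51-fold above the WT mean, and the mean of KO replicates 2 and 3 was 2.27-fold, 3.02-fold and 1.41-fold above it. Leaving out KO replicate 2 or 3 or any WT library ended each of these calls, with adjusted p between 0.0719 and 0.256, and leaving out KO replicate 1 gave 0.000766, 0.000168 and 0.00355.

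By role, the remaining envelope genes showed few calls. Of 14 other LEM-domain and envelope transmembrane genes none was called by edgeR or limma-voom and DESeq2 called 3 higher. The smallest p was that of Ankle1, a LEM-domain nuclease, at 0.991, 6.01 and 4.95 CPM in KO and 0.233 to 0.601 CPM in WT (edgeR adjusted p = 0.0831). Syne3 was the only 1 of 6 tested LINC partners called, Narf the only 1 of 6 lamin processing genes, and Nup210 the only 1 of 30 nucleoporins, of which 10 had an unadjusted p under 0.05 in the higher direction. The median log2 differences of these lists were 0.35, 0.19 and 0.15. The nucleoporins did not all go 1 way. Without KO replicate 1, 12 of them were called higher and 5 lower, beside 49.6% of all genes in that fit. Their summed CPM overlapped between the labels, at 1438, 1176 and 1192 in KO and 1226 to 1432 in WT. Ranbp2 and Tpr weighed on that sum and were low in KO replicates 2 and 3. Ranbp2 was at 155.2, 18.7 and 49 CPM in KO and 111 to 184.4 CPM in WT. Tpr was at 183.7, 25.1 and 69.6 CPM in KO and 146.1 to 180.9 CPM in WT. Of 14 tested ESCRT-III and VPS4 genes, which reseal the envelope, none was called by edgeR or limma-voom, 2 had an unadjusted p under 0.05 in the lower direction and DESeq2 called 2 lower. Chmp5 had the smallest p, at 65.5, 43.6 and 58.1 CPM in KO and 79.7 to 84.9 CPM in WT (edgeR adjusted p = 0.111). Of 14 heterochromatin proteins none was called by edgeR or limma-voom, 3 had an unadjusted p under 0.05 in the higher direction and DESeq2 called 2 higher. Cbx5, which encodes HP1-alpha, a partner of the lamin B receptor, was at 36.4, 49.8 and 42.6 CPM in KO and 23.4 to 33.0 CPM in WT (edgeR adjusted p = 0.108). Of 7 kinases and phosphatases that act on BAF none was called by edgeR, limma-voom or DESeq2, and 1 in each direction had an unadjusted p under 0.05. Vrk2, such a kinase, had a log2 difference of -0.47 (edgeR adjusted p = 0.133).

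Pathways touched by members gave 1 call. Of 10 SMAD target and feedback genes, which answer to the pathway that MAN1 inhibits, edgeR and limma-voom each called 1 higher and DESeq2 3. Id3, an inhibitor of helix-loop-helix factors, was at 9.08, 17.6 and 10.8 CPM in KO and 2.62, 3.35 and 2.88 CPM in WT, a log2 difference of 2.08 (SE 0.296; edgeR adjusted p = 0.0298). That call was lost when any 1 library other than KO replicate 1 was left out (adjusted p = 0.0822 to 0.18). Of 15 tested SRF and MRTF targets, genes known to answer to actin, none was called by edgeR or limma-voom, 3 had an unadjusted p under 0.05 in the higher and 1 in the lower direction, and DESeq2 called 1 in each direction. Zyx, a focal adhesion protein, was at 93.7, 71.9 and 81.7 CPM in KO and 109.2 to 116.5 CPM in WT (edgeR adjusted p = 0.0900).

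Markers of other cells varied beside these results. The summed CPM of 6 fibroblast markers in the table was 4.13, 24.5 and 37.5 in KO replicates 1, 2 and 3 and 5.65 to 8.84 in WT, so KO replicates 2 and 3, where Lmnb1 was highest, were also highest here. None of the 4 tested was called by edgeR or limma-voom and 1 had an unadjusted p under 0.05, while DESeq2 called 2 higher and edgeR without KO replicate 1 called 6 higher. The 6 platelet and megakaryocyte markers summed to 16.5 to 55.3 CPM in KO and 63.2 to 114.6 CPM in WT, with 3 called lower by edgeR, among them Itga2b. In 5 of the 6 all KO libraries lay below all WT libraries. Pf4 was the exception and made up most of each KO sum, at 44.9, 16.2 and 14.5 CPM in KO and 17.6 to 21.8 CPM in WT. KO replicate 1 differed from all other libraries in Ccr2 (64.1 CPM against 1.54 to 2.58), Mmp8 (166.7 against 16.6 to 34.2) and Lyz2 (13170 against 29740 to 36710). The 7 neutrophil markers in the table summed to 173 CPM in KO replicate 1, nearly all of it Mmp8, and to 19.3 to 44.2 CPM elsewhere. Dendritic cell markers summed to 8.75 CPM in KO replicate 1 and 0.257 to 1.10 CPM elsewhere. Of that 8.75 CPM, Cd209a alone made up 7.375 CPM, and Zbtb46 was lower in KO replicate 1 (0.110 CPM) than in any other library. Summed mesothelial markers reached at most 0.110 CPM, B cell markers 3.41 CPM, T and NK cell markers 1.91 CPM, endothelial markers 9.91 CPM and mast cell and eosinophil markers 7.19 CPM. Of 4 X-linked genes known to escape inactivation, Kdm5c was called higher (136.9, 134.9 and 135.4 CPM in KO and 81.3 to 93.5 CPM in WT) and the other 3 were not called. Eif2s3x was at 196.4, 144.8 and 152 CPM in KO and 110.7 to 125.5 CPM in WT, Ddx3x at 387.9, 69.0 and 120.9 CPM against 278.9 to 393.9 CPM, and Kdm6a at 56.2, 9.86 and 13.4 CPM against 22.3 to 31.6 CPM. The part of these markers in the members' values was not tested.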

How the data were processed

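Per the labels' protocols, mRNA was enriched with beads and heat-fragmented, and the PCR-amplified libraries were read on a NovaSeq. The submitters' processing notes name fastp 0.18.0 and the build GRCm39. The table's coordinates are those of GRCm38, since 13128 genes had the same start as in RefSeq GRCm38.p6. Neither aligner, counter, strand setting nor annotation release is named (not given in the sources used here). For each gene and library, the authors deposited an estimated count, per the file headers. Between 4.82% and 5.49% of these were not whole, and they were rounded. The deposited TPM values, per the file headers, served for comparisons between genes. From the authors' deposited table, log2 fold changes were not quoted and q-values and p-values only where named. Groups came from the sample titles.

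Genes that passed filterByExpr (minimum count of 10) numbered 11424. Counts were scaled with TMM factors and fitted in edgeR 4.0.16 (R 4.3.3) on the group alone, by a robust quasi-likelihood test, with Benjamini-Hochberg adjustment over all genes tested. The fit was tested on simulated data. Alternatives tried were upper-quartile or RLE factors, genes averaging 10 CPM or more, no filter, DESeq2 1.42.0, limma-voom (limma 3.58.1), the replicate number as a block and each library left out. Intervals are 95% intervals of the fit and cover the spread between libraries.

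The members and lists were chosen with earlier results of these data known. Named genes were the members, up to 3 called genes of each list with the largest difference and a mean of at least 1 CPM (with none called, the gene with the smallest p), and the 5 genes most like Lmnb1 and Lmna. The genes that describe cell identity, sex and KO replicate 1 were named after their values were seen. A gene that this rule names, and the list it belongs to, are not reported here.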

Additional observations from a re-analysis of the deposited data

How the results depend on the processing

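The count of genes called, 379 in the edgeR fit, was 229 for genes averaging 10 CPM or more, 1344 by DESeq2 and 0 with the replicate block (1976 at an unadjusted p under 0.05), and 5 to 5793 with 1 library left out, the highest without KO replicate 1. The count of members called, 1, was 0 with RLE factors, with no filter, for genes averaging 10 CPM or more, by limma-voom and with the replicate block (6, 6, 7, 6 and 6 at an unadjusted p under 0.05), 3 by DESeq2, and 0 to 8 with 1 library left out. The count of other envelope genes called, 3, was 2 with no filter and for genes averaging 10 CPM or more, 0 with the replicate block (19 at an unadjusted p under 0.05), 13 by DESeq2, and 0 to 41 with 1 library left out. The mean ratio of Lmna to Lmnb1 in WT, 97.6 in TPM, was 76.6 in CPM, which carries no length correction. The log2 difference was reversed for Banf1 without KO replicate 2 (-0.017, and -0.017 to 0.198 with any 1 library left out) and for Lemd3 without WT replicate 3 (0.112, and -0.256 to 0.112). Of 130 values of members under the alternatives, 109 kept their direction and side of the threshold, 10 lost the call, 9 gained it and 2 were reversed. The cause was not tested. The deviations of libraries with the same replicate number from their group means correlated at -0.162, 0.246 and -0.271. In the other group, 2 of 6 libraries correlated best with their own number. These values show no pairing by number, but with 3 libraries per group and KO replicate 1 apart they cannot exclude it. The adjusted p of Lmnb1 with the replicate block was 0.166. Depth limits Lmnb1 in WT, where it rests on 52 to 55 counts per library.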
